A study of Mus musculus with 15 samples.

Results

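Chemokine ligand genes were examined in RNA sequencing libraries of GL261 cells, a mouse glioma line. The 10 genes were listed by symbol (Cxcl1, Cxcl2, Cxcl5, Cxcl10, Cxcl12, Cxcl16, Ccl2, Ccl5, Ccl20 and Cx3cl1) and matched through Ensembl gene identifiers to the deposited table of 34259 genes. Of the 10, 9 were matched, and Cxcl12 was not analysed here. All 9 passed the filter on low counts, which asked for at least 0.241 CPM (a gene's counts scaled to a common library size) in 3 libraries and kept 17497 genes. For 7 of the 9, every library was above that level. Ccl5 reached it in 7 libraries and in all 3 libraries only of D-gel@NP and L-gel@GSNP. Ccl20 reached it in 10 libraries and in all 3 of PBS, D-gel@NP and L-gel@GSNP. Both genes were too low to test in the remaining groups by themselves, and passed through the groups where they were high.

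Chemokines are small secreted proteins that bind G protein-coupled receptors on leukocytes and direct their movement along a gradient. Ligands of the CXC type with an ELR motif, such as Cxcl1, Cxcl2 and Cxcl5, act through Cxcr2 and are known for drawing neutrophils, whereas Ccl2 draws monocytes through Ccr2 and Cxcl10 draws activated T cells through Cxcr3. Many of these genes are induced by inflammatory cytokines through NF-kB. In gliomas, chemokines made by the tumour cells are known for recruiting myeloid cells from the blood.

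The 15 libraries formed 5 groups of 3, all of wild-type genotype, all labelled Day 6 and all with the same batch label. In the non-SP group, cells that the labels place outside the side population (the fraction that pumps out Hoechst dye) were left untreated, and the series text marks them Luci+. Hoechst-CD133+ is the label of the cells in the other groups, and each of these received a cytokine cocktail whose members the labels do not name. PBS cells had buffer and cocktail. In the 3 hydrogel groups (L-gel@GSNP, D-gel@GSNP, D-gel@NP) freeze-dried chiral hydrogels took up the cells during 20 min on ice before culture with the cocktail. D and L are read here as the chirality of the hydrogel, and the code names GSNP and NP, read as its load, are not spelled out in the labels. Fresh medium without additions went to all groups on days 2 and 4. PBS therefore differs from non-SP in cell population and in cytokines together, and in the Luci+ mark if PBS cells lack it. A hydrogel group differs from PBS in hydrogel, load and ice step together. These differences cannot be told apart within a comparison. The labels name 1 cultured line and no leukocytes.

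Promoters were available for 6 of the 10 genes, as the 250 bases before the RefSeq start of each gene in GRCm38.p6. Those of 5 analysed genes are shown, because several of these genes moved together. Capitals mark matches to the 10-base NF-kB consensus on either strand, and overlapping matches were joined.
Cxcl1: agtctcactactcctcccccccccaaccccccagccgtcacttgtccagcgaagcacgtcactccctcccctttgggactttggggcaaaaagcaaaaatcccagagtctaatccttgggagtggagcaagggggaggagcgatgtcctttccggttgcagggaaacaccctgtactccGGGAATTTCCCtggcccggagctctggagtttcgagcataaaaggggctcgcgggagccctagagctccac
Cxcl2: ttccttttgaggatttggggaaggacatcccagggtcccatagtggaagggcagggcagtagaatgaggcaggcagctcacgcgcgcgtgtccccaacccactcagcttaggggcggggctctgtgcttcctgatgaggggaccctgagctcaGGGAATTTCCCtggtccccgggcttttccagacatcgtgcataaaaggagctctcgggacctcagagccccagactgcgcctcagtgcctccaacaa
Ccl20: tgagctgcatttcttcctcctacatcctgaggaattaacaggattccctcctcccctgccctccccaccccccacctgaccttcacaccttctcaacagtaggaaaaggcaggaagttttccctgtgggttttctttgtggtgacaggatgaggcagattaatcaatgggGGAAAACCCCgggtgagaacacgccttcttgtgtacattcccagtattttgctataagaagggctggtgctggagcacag
Cxcl10: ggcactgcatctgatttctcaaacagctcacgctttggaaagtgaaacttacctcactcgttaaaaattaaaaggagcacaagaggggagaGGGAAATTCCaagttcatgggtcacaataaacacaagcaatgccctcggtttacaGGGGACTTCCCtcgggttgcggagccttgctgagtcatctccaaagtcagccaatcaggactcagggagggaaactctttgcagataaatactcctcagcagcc
Cx3cl1: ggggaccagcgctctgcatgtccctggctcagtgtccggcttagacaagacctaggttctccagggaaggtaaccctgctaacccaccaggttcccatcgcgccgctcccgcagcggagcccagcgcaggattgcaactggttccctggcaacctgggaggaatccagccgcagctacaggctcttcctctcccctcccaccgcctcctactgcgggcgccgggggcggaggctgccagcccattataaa
They lie at chr5:90890995-90891244 (plus strand, Cxcl1), chr5:90903649-90903898 (plus strand, Cxcl2), chr1:83116516-83116765 (plus strand, Ccl20), chr5:92348890-92349139 (minus strand, Cxcl10) and chr8:94771930-94772179 (plus strand, Cx3cl1). The Cxcl1 and Cxcl2 promoters have the match GGGAATTTCC in common, 71 to 62 bases before the start in Cxcl1 and 97 to 88 bases before it in Cxcl2. Of all 32851 promoters of the same length, 0.0852% hold these 10 letters, searched on both strands. Cxcl3, a close relative outside the list, holds them as well, 73 to 64 bases before its start. The wider NF-kB consensus occurs in 7.25% of all promoters. It was found in Cxcl1, Cxcl2, Ccl20 and Cxcl10 and not within this window of Cx3cl1 or Cxcl12. Cxcl10 holds it at 159 to 150 bases before the start and again as a run from 104 to 94 bases. Cxcl10 also holds TGANTCA, an AP-1 motif found in 6.75% of promoters when both strands are searched, at 74 to 68 bases. A match describes letters and is no evidence of binding. The promoters of Cxcl5, Cxcl16, Ccl2 and Ccl5 are not shown.

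Total counts ran from 16.6 M (mega) in D-gel@NP 1 to 98.1 M in L-gel@GSNP 3, a 5.9-fold range, so low genes such as Ccl5 and Ccl20 rest on unequal numbers of counts. The biological coefficient of variation was 8.06%. D-gel@GSNP libraries lay at Euclidean distances of 67.6 to 73.9 (log2 CPM of the tested genes) from non-SP libraries, against 67.5 to 69.4 among the non-SP libraries and 113.3 to 123.7 between D-gel@GSNP and PBS. By the labels D-gel@GSNP holds Hoechst-CD133+ cells given hydrogel and cocktail, yet its libraries lay nearly as close to the untreated non-SP libraries as those did to each other, and 73 genes were called between the 2 groups. No gene read here checks the D-gel@GSNP label, so it is in doubt. A label error and an effect of the loaded hydrogel cannot be told apart here, and neither was tested. Every D-gel@GSNP value below is that of the libraries so labelled. The share of counts from mitochondrially encoded genes was also similar in these 2 groups and higher in the others, with 2.82% to 3.37% in D-gel@GSNP, 2.82% to 2.92% in non-SP, 5.69% to 6.35% in PBS, 4.28% to 4.63% in L-gel@GSNP and 4.47% to 4.84% in D-gel@NP. Its part in the results below was not tested. Prom1, the gene of CD133, had 0 to 31 counts in a library and at most 0.307 CPM, so it does not check that label here. Of the 8 glial and glioma markers, Vim and Cd44 gave most of the signal in all groups, while Olig2 was at 0 in every library but 1 and Gfap reached at most 0.304 CPM. The labels do not say whether the 3 libraries of a group came from separate cultures, so p-values measure the spread between these samples, which may be technical. In bulk RNA, fewer cells that express a gene and less RNA per cell cannot be told apart.

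Levels per library and group are plotted for the 9 genes in TMM-scaled CPM. A gene is called higher or lower where edgeR's quasi-likelihood test gave an adjusted p (Benjamini-Hochberg, over all 17497 genes) under 0.05.

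**Figure D1:**
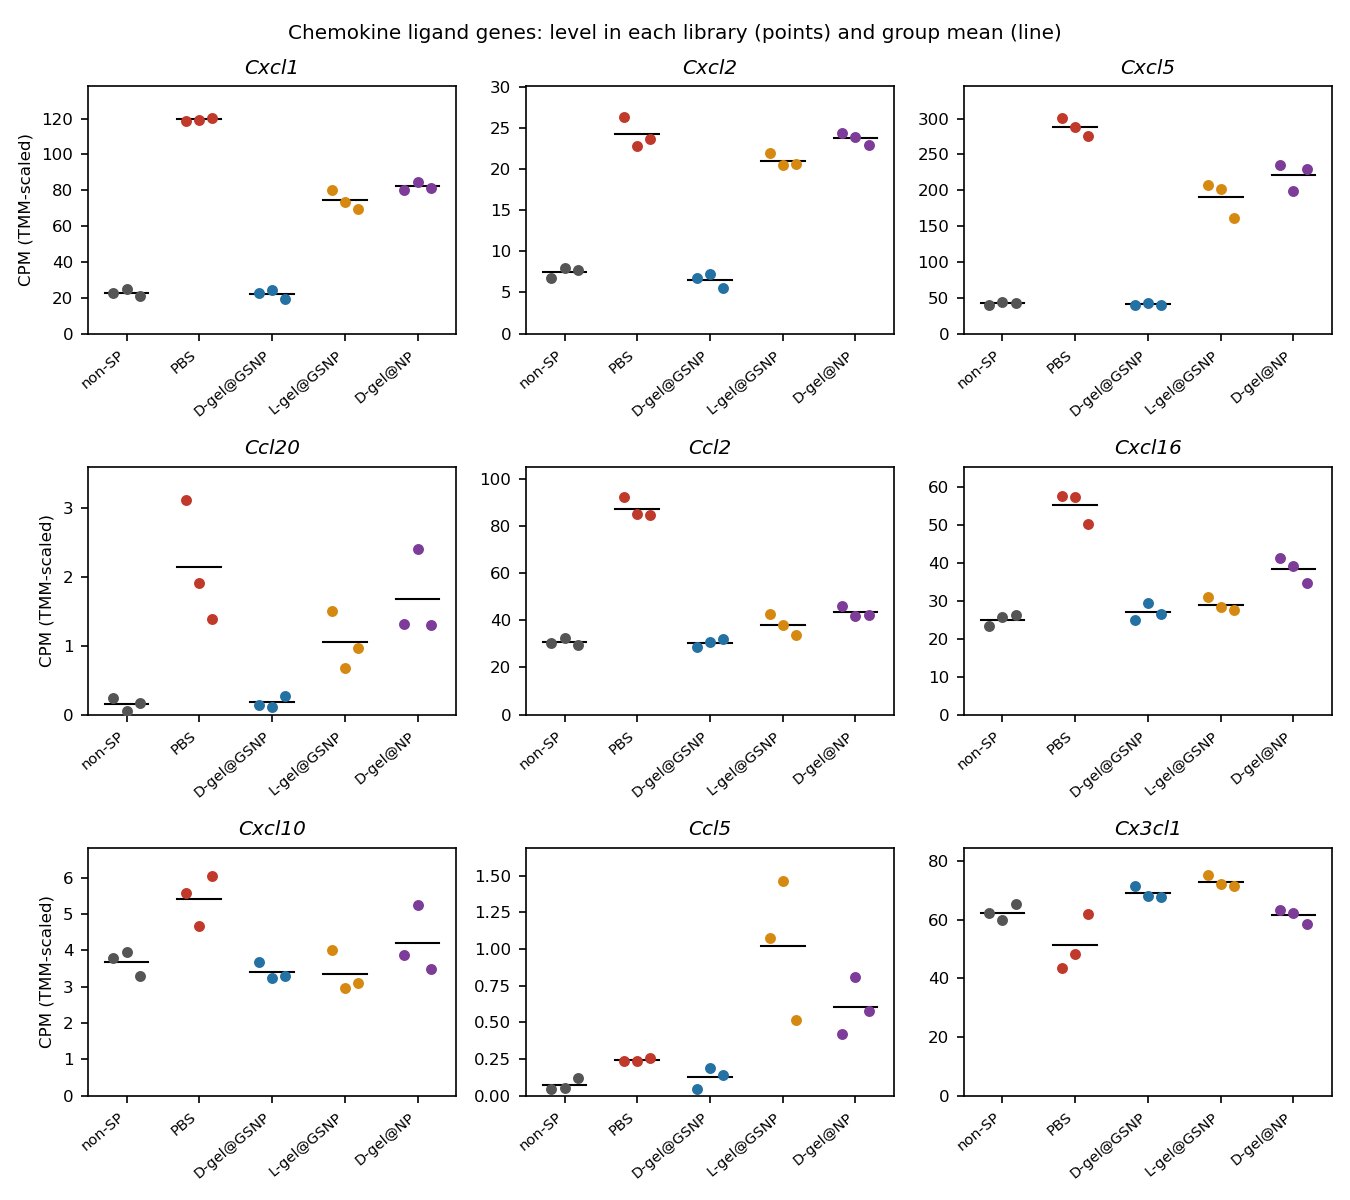
CPM (TMM-scaled, vertical axis, from 0) of 9 chemokine ligand genes in each library (points) of the 5 groups (horizontal axis), with the group mean as a line. For Cxcl1, Cxcl2, Cxcl5 and Ccl20 the non-SP and D-gel@GSNP libraries lie below all libraries of the PBS, D-gel@NP and L-gel@GSNP groups, while Cx3cl1 has its lowest mean in PBS.

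In PBS against non-SP cells, 8 of the 9 genes were higher and 1 was lower. Of all tested genes, 53.7% were called in either direction (27.6% higher, 26.1% lower). The 8 include Ccl20 and Ccl5, which passed the filter through the groups where they were high. The Ccl5 call was lost when most single libraries of these 2 groups were left out. Counts over the 9 genes in the other comparisons include Ccl20 and Ccl5 too. The median log2 difference of the 9 was 1.70, the Ccl5 value itself, against 0.02 over all tested genes. Cxcl5, Cxcl1 and Ccl20 differed most, Cxcl10 least among those that rose, and Cx3cl1 was the gene that fell. Libraries of the 2 groups did not overlap for 8 of the 9 genes, which was so for 61.2% of all tested genes.

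Among the 3 listed ligands of Cxcr2, Cxcl5 had the highest level per length (FPKM) in every group. It stood at 39.7, 44.2 and 43.3 CPM in the non-SP libraries, at 301, 288 and 276 in PBS and at 40.1, 42.3 and 40.1 in D-gel@GSNP. Levels in L-gel@GSNP were 207, 202 and 161 CPM and those in D-gel@NP were 235, 199 and 230. The non-SP and D-gel@GSNP libraries covered the same low range, every PBS library was above all others, and the L-gel@GSNP and D-gel@NP libraries overlapped in between. Cxcl5 was 6.80-fold higher in PBS than in non-SP (log2 difference 2.77, SE 0.08, adjusted p = 6.59e-17, edgeR quasi-likelihood test, n = 3 per group). Against PBS it fell by 2.82 on the log2 scale in D-gel@GSNP, by 0.60 in L-gel@GSNP and by 0.38 in D-gel@NP, with adjusted p of 5.06e-17, 1.01e-06 and 0.000587 by edgeR.

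Cxcl1, also known as KC in mice, followed the same order. It stood at 22.4, 24.8 and 21.0 CPM in non-SP, at 119, 119 and 121 in PBS and at 22.9, 24.4 and 19.6 in D-gel@GSNP. The L-gel@GSNP libraries stood at 80.3, 73.5 and 69.2 CPM and those of D-gel@NP at 80.1, 84.7 and 81.5. The PBS libraries lay close together and above all others, and the D-gel@GSNP libraries overlapped with non-SP. The PBS level was 5.26-fold that of non-SP (log2 difference 2.40, SE 0.08, adjusted p = 1.81e-16 by edgeR). Log2 differences from PBS were -2.42 for D-gel@GSNP, -0.69 for L-gel@GSNP and -0.54 for D-gel@NP, and all 3 were called.

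Cxcl2, also known as MIP-2, had a lower FPKM than Cxcl1 in every group and was not called against PBS in D-gel@NP or L-gel@GSNP. It stood at 6.71, 7.99 and 7.70 CPM in non-SP, at 26.4, 22.8 and 23.7 in PBS and at 6.75, 7.21 and 5.58 in D-gel@GSNP. Levels in L-gel@GSNP were 21.9, 20.5 and 20.6 CPM and those in D-gel@NP were 24.4, 23.9 and 22.9. The D-gel@NP libraries fell inside the PBS range, and the L-gel@GSNP libraries lay just under it. PBS was 3.25-fold above non-SP (log2 difference 1.70, SE 0.10, adjusted p = 2.62e-12 by edgeR), and D-gel@GSNP was 1.90 lower than PBS on the log2 scale (adjusted p = 4.37e-13 by edgeR). The difference of D-gel@NP from PBS was -0.03 (95% interval -0.23 to 0.16, adjusted p = 0.828 by edgeR). That of L-gel@GSNP was -0.21 (-0.40 to -0.02, adjusted p = 0.0669 by edgeR and 0.0466 by DESeq2). In L-gel@GSNP, log2 differences from PBS were thus -0.69 (-0.83 to -0.54) for Cxcl1, -0.60 (-0.76 to -0.45) for Cxcl5 and -0.21 for Cxcl2. Whether the genes differ in this was not tested. Cxcl1, Cxcl2 and Cxcl3 are similar in sequence, and the handling of reads that fit several places is not given in the sources used here, so reads may have been split among them.

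Ccl20, the ligand of Ccr6 that draws dendritic cells and lymphocytes, was present at trace levels. Its counts were 10, 2 and 7 in non-SP, 120, 82 and 55 in PBS and 6, 6 and 12 in D-gel@GSNP. They were 53, 30 and 98 in L-gel@GSNP and 22, 95 and 52 in D-gel@NP, whose libraries differ in depth. Every PBS library was above every non-SP and D-gel@GSNP library, but within PBS the levels ran from 1.39 to 3.11 CPM and overlapped with those of L-gel@GSNP and D-gel@NP. PBS was 13.8-fold above non-SP, with a wide interval (log2 difference 3.78, 2.79 to 4.78, adjusted p = 6.05e-07 by edgeR). D-gel@GSNP was lower than PBS by 3.62 on the log2 scale (adjusted p = 6.10e-07 by edgeR). For L-gel@GSNP against PBS the log2 difference was -1.04 (adjusted p = 0.0256 by edgeR), and the call was lost without PBS 1 (adjusted p = 0.205), without L-gel@GSNP 2 (0.118), without L-gel@GSNP 3 (0.0776) and with limma on log2(FPKM + 0.1) (0.0535) or on unfiltered log2(FPKM + 1) (0.0751). For D-gel@NP it was -0.33 (-1.10 to 0.44, adjusted p = 0.554 by edgeR).

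Ccl2, the main monocyte attractant of the CC type, was called in all 4 of the comparisons that involve PBS. It stood at 30.4, 32.3 and 29.6 CPM in non-SP, at 92.3, 85.0 and 84.6 in PBS and at 28.6, 30.6 and 32.2 in D-gel@GSNP. The L-gel@GSNP libraries stood at 42.7, 37.8 and 33.7 CPM and those of D-gel@NP at 46.0, 41.8 and 42.2. PBS libraries were far above the rest, and the libraries of L-gel@GSNP and D-gel@NP lay just above the non-SP range. PBS was 2.84-fold above non-SP (95% interval of the log2 difference 1.35 to 1.66, adjusted p = 3.07e-13 by edgeR). Log2 differences from PBS were -1.52 in D-gel@GSNP, -1.01 for D-gel@NP and -1.20 for L-gel@GSNP, with adjusted p of 2.51e-13, 1.69e-09 and 3.11e-11 by edgeR. Against non-SP, Ccl2 was 1.23-fold higher in L-gel@GSNP (adjusted p = 0.00167 by edgeR) and 1.40-fold higher in D-gel@NP (adjusted p = 1.09e-05 by edgeR).

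Ccl7 and Ccl8, which lie near Ccl2 on chromosome 11 and also draw monocytes, are not in the list and were chosen for mention after their values were seen. Ccl7 stood at 0.169 CPM in non-SP, 4.15 in PBS, 0.0668 in D-gel@GSNP, 2.23 for D-gel@NP and 1.02 for L-gel@GSNP (group means). It was 24.2-fold higher in PBS than in non-SP (adjusted p = 4.38e-10 by edgeR), from 21 counts in the 3 non-SP libraries together. Its means in non-SP and D-gel@GSNP lay below the filter level of 0.241 CPM. Ccl7 was thus tested through the groups where it was high. Ccl8 was 9.86-fold higher in the same comparison (adjusted p = 2.60e-08 by edgeR). Ccl2, Ccl7 and Ccl8 are related genes, so the caution on shared reads applies to them too.

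Cxcl16 and Cx3cl1 are made as membrane-anchored proteins that can be shed, and are ligands of Cxcr6 and Cx3cr1. Cxcl16 stood at 23.3, 25.7 and 26.2 CPM in non-SP, at 57.7, 57.5 and 50.4 in PBS and at 25.1, 29.4 and 26.7 in D-gel@GSNP. The L-gel@GSNP libraries stood at 30.9, 28.4 and 27.6 CPM and those of D-gel@NP at 41.3, 39.2 and 34.6. The D-gel@NP libraries lay between PBS and all the others, and the L-gel@GSNP libraries overlapped with D-gel@GSNP. PBS was 2.20-fold above non-SP (log2 difference 1.14, SE 0.08, adjusted p = 8.76e-11 by edgeR). Against PBS it fell by 1.03 on the log2 scale in D-gel@GSNP, by 0.93 in L-gel@GSNP and by 0.53 in D-gel@NP, and all 3 differences were called. L-gel@GSNP was 0.40 lower than D-gel@NP (log2, adjusted p = 0.00116 by edgeR). Cxcl16 overlaps Zmynd15 in the RefSeq annotation, and the strand setting of the counting is not given in the sources used here, so reads of the 2 genes could not be told apart.

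Cx3cl1, or fractalkine, was the only listed gene called lower in PBS than in non-SP. It stood at 62.3, 59.9 and 65.3 CPM in non-SP, at 43.6, 48.3 and 62.1 in PBS and at 71.5, 68.1 and 67.9 in D-gel@GSNP. Levels in L-gel@GSNP were 75.3, 72.2 and 71.5 CPM and those in D-gel@NP were 63.6, 62.5 and 58.5. PBS 3 lay inside the non-SP range and the other PBS libraries below it, while D-gel@GSNP and L-gel@GSNP were above both groups. The fall in PBS against non-SP was to 0.821-fold (log2 difference -0.28, SE 0.08, adjusted p = 0.00665 by edgeR) and was no longer called without PBS 1 (adjusted p = 0.0629) or with limma on unfiltered log2(FPKM + 1) (0.055). Against PBS it was higher by 0.43 in D-gel@GSNP and by 0.51 in L-gel@GSNP on the log2 scale (adjusted p = 0.000143 and 3.11e-05 by edgeR). The rise of 0.26 in D-gel@NP (adjusted p = 0.0241 by edgeR) was lost without PBS 1 (0.14), PBS 2 (0.11), D-gel@NP 1 (0.0594) or D-gel@NP 2 (0.0597), in a fit of only the libraries compared (0.0677) and with limma on unfiltered log2(FPKM + 1) (0.0871). Cx3cl1 overlaps the predicted gene Gm51543 in RefSeq.

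Of 7 shedding and protease genes, 4 were tested. Adam10 and Adam17, the main sheddases of Cx3cl1 and Cxcl16, were expressed in all groups, each overlapping another gene in RefSeq, at group means of 168.8 to 211.7 CPM and 57.5 to 68.2 CPM. In PBS against non-SP, Adam10 was 1.11-fold higher (adjusted p = 0.0108 by edgeR), Adam17 was not called (1.06-fold, adjusted p = 0.29) and Mmp14, a membrane protease, was 0.744-fold (adjusted p = 3.3e-05). In L-gel@GSNP against PBS, Adam10 and Mmp14 rose by 0.16 and 0.69 on the log2 scale and Adam17 fell by 0.25 (adjusted p = 0.012, 8.43e-08 and 0.00199 by edgeR).

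Cxcl10 and Ccl5, both known for drawing T cells, were low. Cxcl10 stood at 3.79, 3.97 and 3.29 CPM in non-SP, at 5.58, 4.67 and 6.05 in PBS and at 3.68, 3.24 and 3.29 in D-gel@GSNP. Levels in L-gel@GSNP were 4.02, 2.95 and 3.11 CPM and those in D-gel@NP were 3.88, 5.25 and 3.47. The PBS libraries were the highest, apart from D-gel@NP 2, which fell among them. PBS was 1.47-fold above non-SP (log2 difference 0.56, SE 0.17, adjusted p = 0.00773 by edgeR). D-gel@GSNP and L-gel@GSNP were 0.68 and 0.70 lower than PBS on the log2 scale (adjusted p = 0.00168 and 0.00157 by edgeR). For D-gel@NP the difference was -0.36 (-0.72 to -0.01, adjusted p = 0.12 by edgeR) and was called without D-gel@NP 2 (adjusted p = 0.0275). Cxcl10 overlaps Art3 in RefSeq.

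Ccl5 had its highest levels in L-gel@GSNP and D-gel@NP. Its counts were 2, 2 and 5 in non-SP, 9, 10 and 10 in PBS and 2, 10 and 6 in D-gel@GSNP. They were 38, 65 and 52 in L-gel@GSNP and 7, 32 and 23 in D-gel@NP, which is 0.515 to 1.46 and 0.417 to 0.811 CPM. All libraries of these 2 groups were above all others, and they overlapped with each other. L-gel@GSNP was 4.17-fold above PBS (log2 difference 2.06, 1.04 to 3.08, adjusted p = 0.00147 by edgeR). D-gel@NP was 2.59-fold above PBS (adjusted p = 0.047 by edgeR), a call lost without a filter on low counts (0.0581), in the fit with a replicate block (0.0613), with limma on log2(FPKM + 1) (0.055, and 0.133 unfiltered) and without any 1 of the PBS libraries (0.0854 to 0.114), D-gel@NP 2 (0.189) or D-gel@NP 3 (0.0803). PBS against non-SP gave a log2 difference of 1.70 (0.33 to 3.07, adjusted p = 0.034 by edgeR), and leaving out any library of the 2 groups except non-SP 3 ended that call (adjusted p of 0.0572 to 0.112), as did limma on log2(FPKM + 1) (0.208, and 0.358 unfiltered). Markers of T and NK cells, which make Ccl5, summed to at most 0.175 CPM in any library and were too low to be tested. Cd3e, Cd3d, Cd3g and Cd4 were at 0 in non-SP and in D-gel@GSNP. Cd3e had 1, 2 and 2 counts in the L-gel@GSNP libraries, and Cd4 had 5 counts in D-gel@NP 3. Ccl5 overlaps the predicted gene Gm32650 in RefSeq.

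The differences of PBS from non-SP and of each hydrogel group from PBS are plotted with their intervals. The 3 comparisons of a hydrogel group with PBS share the PBS libraries, so their calls are not independent of each other.

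**Figure D2:**
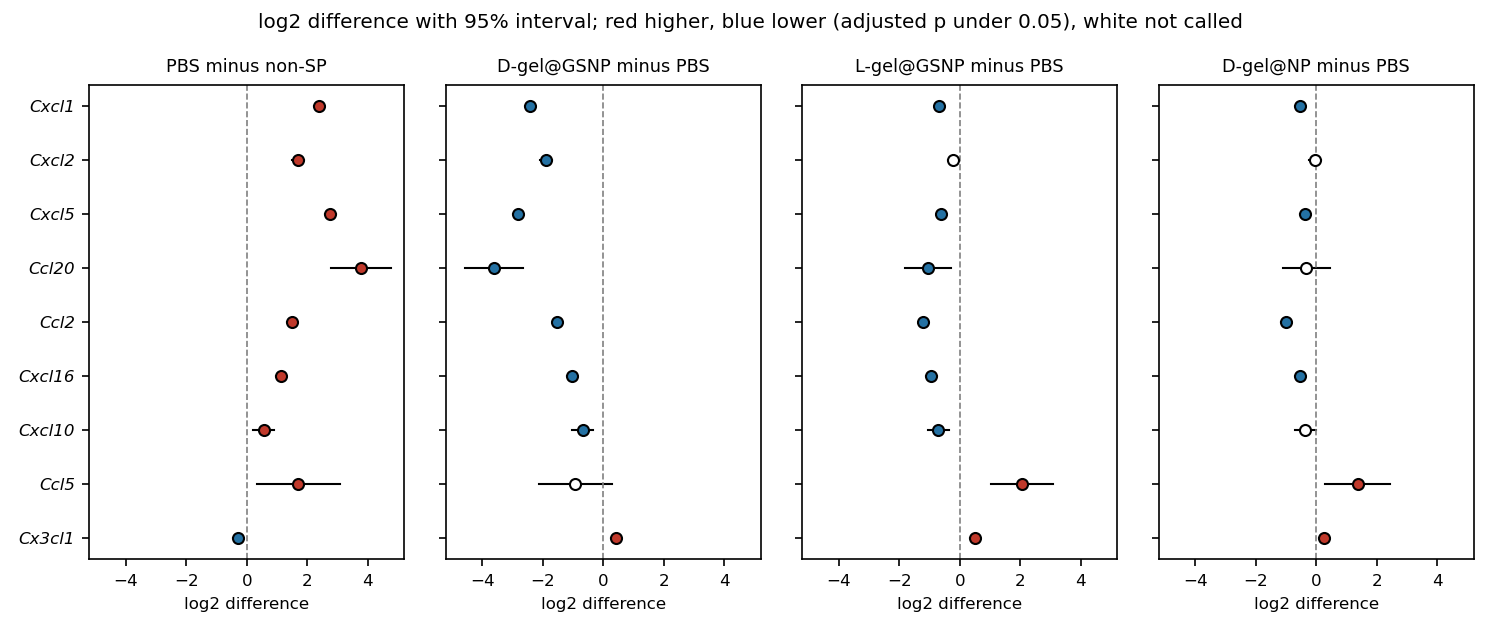
Log2 difference (horizontal axis) with 95% interval for 9 chemokine ligand genes in 4 comparisons (panels), red where called higher, blue where called lower and white where not called at an adjusted p under 0.05. In PBS minus non-SP, 8 of the 9 genes are called higher, and in D-gel@GSNP minus PBS 7 are called lower. In L-gel@GSNP minus PBS Ccl5 is called higher at 2.06. Ccl5 and Ccl20 passed the filter on low counts through the groups where they were high.

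In D-gel@GSNP against PBS, 7 of the 9 genes were lower and 1, Cx3cl1, was higher, where 55% of all tested genes were called (27.4% higher, 27.5% lower). Libraries did not overlap for 9 of the 9, as for 61% of all tested genes. Ccl5 was not called (18 counts against 29). The median of the 9 was -1.52 on the log2 scale, against -0.02 over all tested genes. In L-gel@GSNP against PBS, 6 were lower and 2 higher (45.6% of all tested genes called, 24.1% lower and 21.5% higher). The median of the 9 was -0.69 against 0.00 over all genes, and 8 of the 9 did not overlap, as for 52.4% of all tested genes. In D-gel@NP against PBS, 4 were lower and 2 higher (30.4% of all tested genes called, 16.3% lower and 14.2% higher). The median was -0.36 against 0.00, and 5 of the 9 did not overlap, as for 39.8% of all tested genes.

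D-gel@GSNP was set directly against the other hydrogel groups. Against L-gel@GSNP, which shares the load and differs in chirality, 6 of the 9 genes were lower and 0 higher (61.8% of all tested genes called, 31.3% lower and 30.5% higher). The log2 differences were -2.22 for Cxcl5, -1.73 for Cxcl1, -1.69 for Cxcl2, -2.98 for Ccl5, -2.58 for Ccl20 and -0.31 for Ccl2. Cxcl10, Cxcl16 and Cx3cl1 were not called, at 0.03 (-0.33 to 0.38), -0.10 (-0.26 to 0.07) and -0.08 (-0.25 to 0.09). With upper-quartile scaling Cxcl16 and Cx3cl1 were called lower (adjusted p = 0.0136 and 0.0219 by edgeR). Against D-gel@NP, which shares the chirality and differs in load, 7 of the 9 were lower and 0 higher (58.4% called, 29.6% lower and 28.8% higher), from -3.30 for Ccl20 to -0.50 for Cxcl16 and Ccl2. Cxcl10 and Cx3cl1 were not called, at -0.31 and 0.17. Cxcl10 was called with upper-quartile scaling (adjusted p = 0.0371) and without D-gel@NP 3 (0.0462), and Cx3cl1 without a filter (0.0205) and in a fit of only the libraries compared (0.02), all by edgeR. The structures behind the code names GSNP and NP are not described here.

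L-gel@GSNP and D-gel@NP, which differ in chirality and load together, gave 1 higher and 2 lower among the 9 (19.5% of all tested genes called, 8.33% higher and 11.1% lower). Cxcl16 was lower in L-gel@GSNP, as given above. Cxcl5 was 0.22 lower on the log2 scale (adjusted p = 0.0448 by edgeR) and Cx3cl1 0.25 higher (adjusted p = 0.0403 by edgeR). Without L-gel@GSNP 3, D-gel@NP 1 or D-gel@NP 3 the count was 1, since Cxcl5 (adjusted p of 0.155 to 0.266) and Cx3cl1 (0.0575 to 0.152) were lost. Cx3cl1 was also lost without any other 1 of the 6 libraries. Both were lost with limma (adjusted p of 0.0862 to 0.175 for Cxcl5 and 0.0688 to 0.142 for Cx3cl1), and Cxcl5 also with upper-quartile scaling (0.081), with at least 1 CPM in 3 libraries (0.0541) and in a fit of only the libraries compared (0.136). Ccl2 was not called (-0.19, adjusted p = 0.0892 by edgeR) but was without L-gel@GSNP 1 (0.0135).

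Against non-SP, D-gel@GSNP gave 0 calls among the 9 genes, and 0.417% of all tested genes (73) were called (0.103% higher, 0.314% lower). Libraries did not overlap for 1 of the 9, Cx3cl1, as for 20.4% of all tested genes. By edgeR 0 of the 9 had an unadjusted p under 0.05, and DESeq2 (8 tested) and limma on log2(FPKM + 1) also called 0. Intervals of the log2 difference were narrow for the abundant genes, at -0.22 to 0.12 for Cxcl5, -0.19 to 0.13 for Cxcl1 and -0.17 to 0.15 for Ccl2. They were wide for Ccl20 (-1.12 to 1.44) and Ccl5 (-0.69 to 2.26). A 2-fold difference in either direction for Ccl20, and a 2-fold rise for Ccl5, were thus not excluded. Over the same non-SP libraries, L-gel@GSNP gave 8 higher and 0 lower (59.8% of all tested genes called, 30.6% higher and 29.2% lower). D-gel@NP gave 7 higher and 0 lower (56.1% called, 29.1% higher and 27% lower). Cxcl10 was called in neither, at -0.14 (-0.50 to 0.21) and 0.20 (-0.16 to 0.56), nor was Cx3cl1 in D-gel@NP. In L-gel@GSNP, the calls of Cxcl16 (1.15-fold, adjusted p = 0.0344 by edgeR) and Cx3cl1 (1.17-fold, 0.0241) were each lost without non-SP 1, non-SP 2 or L-gel@GSNP 1, with adjusted p of 0.0538 to 0.169 and 0.0558 to 0.0997, and with limma on unfiltered log2(FPKM + 1) (0.0535 and 0.0667).

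Levels of different genes were compared per length, as deposited FPKM. Among the 9 listed genes the order in non-SP was Ccl2 (26.9 FPKM), Cxcl5 (22.6), Cx3cl1 (15.8), Cxcl1 (12.1), Cxcl16 (8.25), Cxcl2 (3.59), Cxcl10 (1.63), Ccl20 (0.108) and Ccl5 (0.076). In PBS it was Cxcl5 (155.7), Ccl2 (77.2), Cxcl1 (64.2), Cxcl16 (18.4), Cx3cl1 (13.2), Cxcl2 (11.8), Cxcl10 (2.43), Ccl20 (1.51) and Ccl5 (0.251). Cx3cl1 thus ranked 3 of the 9 in non-SP and 5 in PBS, where its libraries (11.1 to 15.9 FPKM) overlapped with those of Cxcl2 (11.1 to 12.8). Cxcl1 ranked 2 in L-gel@GSNP and D-gel@NP, ahead of Ccl2. D-gel@GSNP had the order of non-SP except for the last places, where Ccl20 and Ccl5 overlapped.

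The deposited table held 22 of 28 further chemokine ligand genes, of which 12 were tested. In PBS against non-SP 7 of the 12 were higher and 1 was lower, where 27.6% of all tested genes were called higher and 26.1% lower. Summed over all 31 ligand genes, the level was 272 ± 2.82 FPKM in non-SP, 582 ± 12.9 in PBS, 268 ± 13.0 in D-gel@GSNP, 524 ± 9.53 for D-gel@NP and 441 ± 40.2 for L-gel@GSNP (mean ± SD, n = 3). The listed genes made up 33.4% of this sum in non-SP and 33.3% in D-gel@GSNP, but 59.2% in PBS, 50.0% in L-gel@GSNP and 47.1% in D-gel@NP. Cxcl5 alone took 8.30%, 7.94%, 26.8%, 23.5% and 22.9% in the same order.

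**Figure D3:**
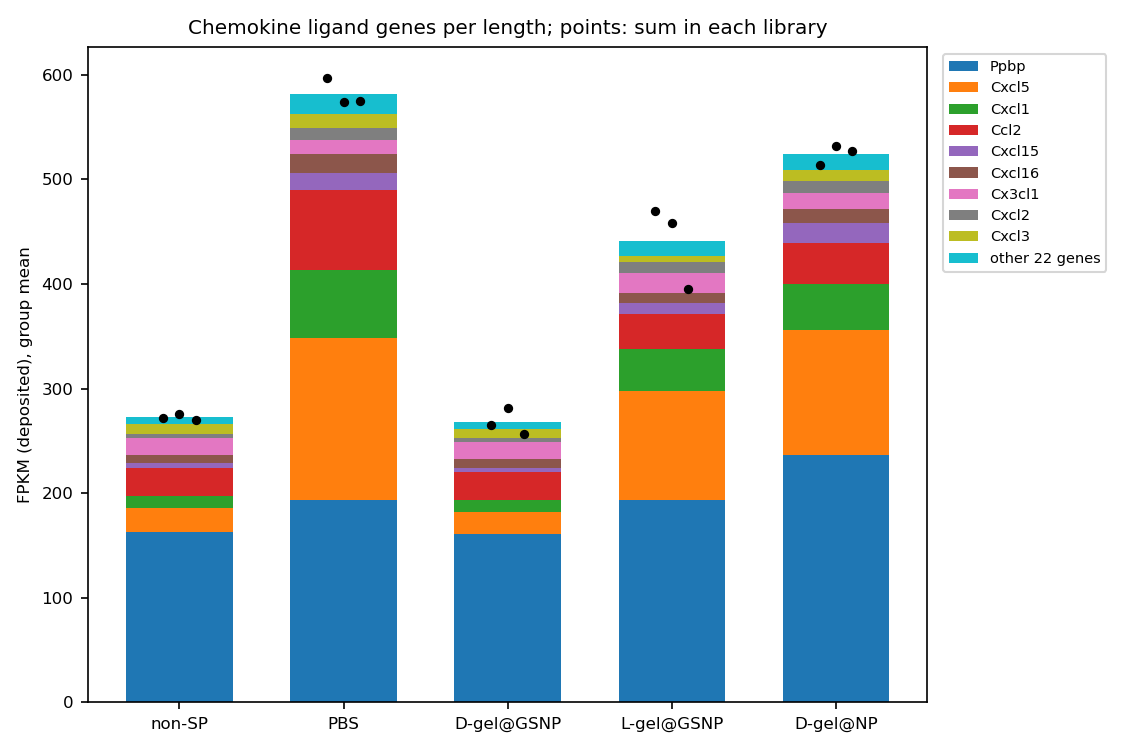
Stacked bars give the mean deposited FPKM (vertical axis, from 0) of chemokine ligand genes in the 5 groups, with points for the sum in each library. Ppbp is the largest segment in every group, and the sum is lowest in non-SP and D-gel@GSNP, at 272 and 268 FPKM.

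The ligand gene with the highest FPKM in every group was not a listed one. Ppbp, which encodes a CXC chemokine best known from platelets, stood at 162.9 FPKM in non-SP, 193.1 in PBS, 161.2 in D-gel@GSNP, 236.3 for D-gel@NP and 193.5 for L-gel@GSNP. It rose 1.17-fold in PBS against non-SP (adjusted p = 0.00338 by edgeR), while its neighbour Cxcl5 rose 6.80-fold. Other ligands of at least 5 CPM were Cxcl3, Cxcl15 and Ccl25. Cxcl15, named lungkine, was 3.93-fold higher in PBS than in non-SP (33.6, 33.9 and 34.1 against 8.29, 9.40 and 8.16 CPM, adjusted p = 6.29e-10 by edgeR). Cxcl3 was 1.35-fold higher (adjusted p = 0.000132) and Ccl25, a thymus chemokine, was 0.673-fold (adjusted p = 0.000105).

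In RefSeq the genes Cxcl5, Ppbp, Pf4, Cxcl3, Cxcl15, Cxcl1 and Cxcl2 follow each other on chromosome 5, and 3 of these 7 are listed. Log2 differences of PBS from non-SP along this order were 2.77, 0.23, 0.84 (Pf4, not called), 0.44, 1.97, 2.40 and 1.70. Low differences thus lay between high ones, with the intervals of Ppbp (0.10 to 0.36) and Cxcl3 (0.26 to 0.61) below all those of Cxcl5, Cxcl15, Cxcl1 and Cxcl2. In L-gel@GSNP against PBS Cxcl3 had the lowest estimate of the 7, at -1.04 (-1.22 to -0.86). Its level there, 22.5 CPM, was also below the 34.1 CPM of non-SP (0.657-fold, adjusted p = 1.94e-06 by edgeR).

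**Figure D4:**
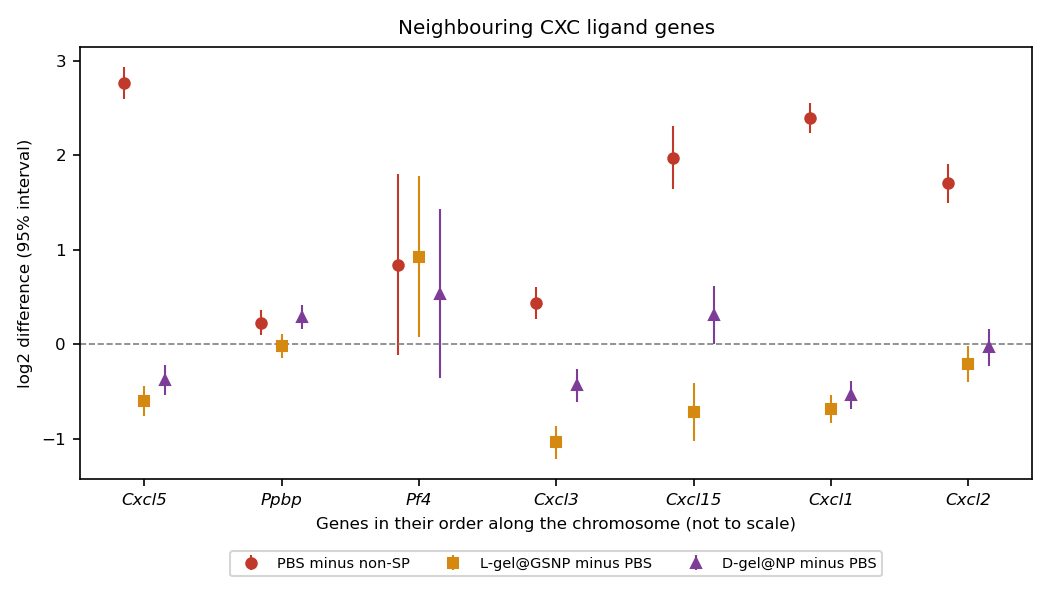
Log2 difference with 95% interval (vertical axis) of 7 neighbouring CXC ligand genes in their chromosomal order (horizontal axis, not to scale) for 3 comparisons. In PBS minus non-SP, Cxcl5, Cxcl15, Cxcl1 and Cxcl2 lie at 1.70 or above and Ppbp and Cxcl3 at 0.23 and 0.44.

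Receptors of the ligands were scarce. Of 23 receptor genes, 20 were in the table and 6 were tested. Cxcr2, the receptor of Cxcl1, Cxcl2 and Cxcl5, had 0, 20, 4, 8 and 0 counts in the 3 libraries together of each group, from non-SP and PBS to the D-gel@GSNP and L-gel@GSNP groups and D-gel@NP. Ccr2, the receptor of Ccl2, had 2 counts in all, both in the library PBS 2. Cxcr4, a receptor of Cxcl12, had 2 counts in all, both in the library D-gel@NP 2. The receptors that reached 1 CPM in a group were Ccrl2, Ackr3 and Cxcr3.

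Ackr3, an atypical receptor that scavenges Cxcl12, stood at 0.441, 0.232 and 0.380 CPM in PBS, at 3.85, 2.01 and 3.40 in L-gel@GSNP and at 0.358, 0.862 and 0.950 in D-gel@NP. The L-gel@GSNP libraries were above all others. The level was 8.85-fold that of PBS (adjusted p = 2.09e-07 by edgeR) and 4.00-fold that of D-gel@NP (adjusted p = 0.000153 by edgeR). Ccrl2, an atypical receptor that binds chemerin, stood at 2.05 CPM in PBS, 5.99 in L-gel@GSNP and 3.21 in D-gel@NP (group means) and was 2.91-fold above PBS in L-gel@GSNP (adjusted p = 2.27e-07 by edgeR). Cxcr3, the receptor of Cxcl10, was 0.501-fold in PBS against non-SP (0.467, 0.883 and 0.810 against 1.41, 1.49 and 1.43 CPM, adjusted p = 0.0161 by edgeR).

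All 22 regulators of the NF-kB, STAT and IRF list were tested. In PBS against non-SP, 10 were higher, 3 were lower and 9 were not called, with a median log2 difference of 0.17 against 0.02 over all tested genes, of which 53.7% were called (27.6% higher, 26.1% lower). The number called was thus near the background. Lowest in adjusted p were Ikbkg, the NEMO subunit of the IKK complex (2.36-fold, 1.48e-13), Nfkbiz, an inducible nuclear IkB protein (2.49-fold, 5.1e-12), and Nfkbia, the inhibitor IkB alpha that is itself an NF-kB target (1.83-fold, 8.03e-10), all by edgeR. The 3 called lower were Nfkb1, an NF-kB subunit (0.652-fold, adjusted p = 1.38e-08), Bcl3 (0.636-fold, 0.000781) and Nfkbie (0.740-fold, 0.0223), by edgeR. The subunit genes Nfkb2, Rela, Relb and Rel were not called. Ikbkg overlaps G6pdx and Fam3a in RefSeq, so its counts are uncertain without strand. In D-gel@GSNP against PBS, 4 of the 22 were higher and 7 lower, where 55% of all tested genes were called, and Ikbkg and Nfkbiz were 0.406-fold and 0.404-fold (adjusted p = 6.37e-14 and 4.68e-12 by edgeR). In L-gel@GSNP against PBS, 6 of the 22 were higher and 4 lower, where 45.6% of all tested genes were called. Irf1, an interferon-response factor, and Tnfaip3, which restrains NF-kB signalling, were 1.49-fold and 1.68-fold in that comparison (adjusted p = 2.29e-07 and 1.53e-06 by edgeR). In D-gel@NP against PBS, 5 of the 22 were higher and 1 lower, where 30.4% of all tested genes were called.

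Markers of other cell types were read beside these levels. The markers named singly were chosen after their values were seen. The 11 macrophage and microglia markers summed to 11.1 to 11.3 CPM in non-SP, 66.8 to 74.7 in PBS, 12.02 to 13.0 in D-gel@GSNP, 38.6 to 45.3 in L-gel@GSNP and 33.1 to 40.9 in D-gel@NP. These sums were highest in PBS and lowest in non-SP and D-gel@GSNP, as Cxcl5 was. Most of the sum came from Cd68 (6.51, 42.4, 7.51, 15.5 and 16.3 CPM in that order) and Csf1r (2.46, 24.6, 2.79, 19.2 and 16.9). Besides these, P2ry12 had its highest mean in PBS, while Itgam, Ptprc, Cx3cr1, Fcer1g and Adgre1 had theirs in other groups. The glial and glioma markers were also highest in PBS and lowest in non-SP and D-gel@GSNP. Their mean sums were 1547, 2488, 1613, 2158 and 2124 CPM in the same order. Of the 11, 8 were tested, and in PBS against non-SP 5 were higher and 0 lower. Of all tested genes, 27.6% were called higher and 26.1% lower in that comparison. Itgam, the integrin subunit CD11b, was 18.2-fold higher (0.0983 and 1.79 CPM, group means, adjusted p = 6.18e-08 by edgeR) and stood at 3.92 CPM in L-gel@GSNP. Ptprc, the leukocyte antigen CD45, was also called higher, with 56 counts in the PBS libraries together against 3 in non-SP (adjusted p = 0.000419 by edgeR). So was Cx3cr1 (23 counts against 4, adjusted p = 0.0273 by edgeR). Fcer1g (0.165 CPM in PBS against 0.303 in non-SP), P2ry12 (2.07 against 1.56) and Adgre1 were not called there. Aif1, Tmem119 and Tyrobp were too low to be tested. Tyrobp was at 0 in non-SP, PBS and L-gel@GSNP, Adgre1 was at 0 in non-SP, and neither exceeded a mean of 0.337 CPM. Adgre1, the gene of F4/80, was called higher in D-gel@NP than in PBS (32 counts against 4, adjusted p = 0.00906 by edgeR). It passed the filter on low counts only through the D-gel@NP libraries, the group called higher. Itgam, Ptprc and Cx3cr1 were below the filter level in every non-SP library and passed through groups where they were high. The 5 neutrophil markers summed to 1.12 to 7.40 CPM per library, nearly all of it Ly6g, and the 4 endothelial markers in the table to at most 1.77 CPM. The fibroblast and pericyte list summed to 681 to 709 CPM in non-SP, 1290 to 1365 in PBS, 675 to 698 in D-gel@GSNP, 1305 to 1468 in L-gel@GSNP and 1454 to 1510 in D-gel@NP, mostly from Dcn. The part of such markers in the chemokine levels was not tested.

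For each listed gene, the 3 genes most alike in pattern were taken by Pearson correlation of log2 CPM over the 15 libraries, which share the group differences and the scaling. This is a description without a test, over 10090 or 10091 candidate genes of at least 5 CPM. Cxcl1 was most like Hist1h2bc (r = 0.994), Cxcl5 (0.993) and Cd44 (0.992), and Cxcl5 most like Idh1 (0.995), Ctsd and Atg9b (both 0.994). For Cxcl2 they were Map1lc3b, Dgka and Phkb (all 0.992), and for Ccl20 they were Slc17a5 (0.965), Rnf20 (0.964) and Ccdc141 (0.962). Serpinb5 was among the 3 for both Cxcl16 (0.976, after Tmco3 at 0.981 and Tor1b at 0.977) and Ccl2 (0.977, beside Endod1 at 0.984 and Suox at 0.977). Cxcl10 had no close match, with Pip4p2 first at 0.878, then Snx16 (0.869) and Cmpk2 (0.863). Ccl5 was most like Abcd2 (0.954), Ddx17 (0.953) and Rdh10 (0.951), and Cx3cl1 most like Tab2 (0.950), Dbn1 (0.938) and Amer1 (0.935). Within the list, Cxcl1, Cxcl2 and Cxcl5 correlated at 0.979 to 0.993 with each other and Cxcl16 with Ccl2 at 0.958. Cxcl5 correlated with Ccl2 at 0.783 and with Cx3cl1 at -0.381.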

How the data were processed

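RNA was extracted with TRIzol and sequenced as read pairs, per the labels' protocols. The deposited table holds whole-number counts per gene, and the submitters' processing notes name fastp 0.22.0, HISAT2 2.1.0, featureCounts, DESeq2 and GRCm39; strand, multi-mapping and annotation release are not given in the sources used here. The authors also deposited FPKM, which for all 34259 genes equals the count divided by a fixed length and the library total (relative tolerance 0.0001). Among genes with 1 to 20 counts, 62.32% to 66.44% of values per library were even; if mates were counted singly, counting errors are larger than the counts imply. Gene identifiers were given symbols from GENCODE vM21, whose build (GRCm38) is an earlier one (32434 matched, 1825 not), so no coordinates of the files' build are given.

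In R 4.3.3, edgeR 4.0.16 kept genes with filterByExpr (minimum count 10), scaled with TMM factors and fitted 1 mean per group to all 15 libraries (glmQLFit, glmQLFTest), without the replicate number. P-values were adjusted by Benjamini-Hochberg over all genes of each of 10 comparisons. Log2 differences are unshrunken coefficients, with SE and 95% intervals from the quasi-likelihood statistic. Levels are CPM from the counts between libraries and the deposited FPKM between genes. Fold changes come from the fit. The members and lists were chosen with earlier results of these data known, so no list is tested as a whole. All listed genes are named. Other ligands are named from 5 CPM in a group, receptors from 1 CPM, and up to 3 sheddase or regulator genes per comparison by adjusted p. For PBS minus non-SP, the regulators called lower and the NF-kB subunits not called are named too. Cell type markers were read for macrophages and microglia, T and NK cells, neutrophils, endothelium, fibroblasts and pericytes, and glia. Alternatives were RLE and upper-quartile factors, 2 other filters, DESeq2 1.42.0, limma 3.58.1 on log2(FPKM + 1), filtered or not, or on log2(FPKM + 0.1), only the libraries compared, a replicate block, and leaving out each library. The test was run on simulated data for PBS minus non-SP (17497 genes, 16971 tested), with 100 genes changed 1.5-fold and 100 changed 2-fold. It recovered 53% of 1.5-fold and 73% of 2-fold changes and called 9 of 16778 unchanged genes. Changed genes that the filter removed counted as not recovered. In the data 53.7% of tested genes were called, so the adjusted threshold differed and these shares do not give the power there. Promoters are RefSeq's (GRCm38.p6). Sequence reads were not analysed here.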

Additional observations from a re-analysis of the deposited data

How the results depend on the processing

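Over 1426 alternative values of single genes, 1362 kept their direction and side of the threshold, 55 kept the direction and were no longer called, 9 became called and 0 reversed. Of 160 alternative counts of called genes, 154 stayed within 1.5 times, and the other 6 were all in L-gel@GSNP minus D-gel@NP. There the count of 3 went to 1 with limma on log2(FPKM + 1), with or without a filter, and on log2(FPKM + 0.1), and to between 1 and 3 when 1 library was left out; the cause was not tested. Same-numbered libraries of the groups compared correlated at -0.036 to 0.045 in their deviations from group means, so no shared shift by replicate number was seen. This cannot show whether the numbers mark parallel cultures, which the labels do not say. In the fit with a replicate block, 9 genes were called in PBS minus non-SP and 5 in D-gel@NP minus PBS, where Ccl5 was lost (adjusted p = 0.0613); no other listed gene's call changed. Upper-quartile factors put the median log2 difference of all genes more than 0.1 from 0 in some comparisons. It was -0.184 in D-gel@GSNP minus L-gel@GSNP, -0.157 in D-gel@GSNP minus D-gel@NP and -0.103 in D-gel@GSNP minus PBS. It was 0.161 in L-gel@GSNP minus non-SP and 0.134 in D-gel@NP minus non-SP. With upper-quartile factors Cxcl16 and Cx3cl1 were called lower in D-gel@GSNP than in L-gel@GSNP (-0.24 and -0.22). With at least 1 CPM in 3 libraries Ccl5 was not tested. Depth limits Ccl5 and Ccl20 in particular.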

Other observations

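Receptors through which inflammatory cytokines and microbial products induce chemokine genes were read as a list of 17, all of them tested. The genes named here were chosen after their values were seen. In PBS against non-SP, 8 were higher, 1 was lower and 8 were not called, where 53.7% of all tested genes were called (27.6% higher, 26.1% lower). Tlr2, a sensor of bacterial lipoproteins, was 3.28-fold higher (adjusted p = 2.91e-12, edgeR quasi-likelihood test) and Il1r1, the signalling receptor of interleukin 1, was 2.53-fold higher (adjusted p = 1.89e-05). In D-gel@GSNP against PBS both were lower, at 0.285-fold and 0.442-fold (adjusted p = 1.02e-12 and 6.54e-05 by edgeR).

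In L-gel@GSNP against PBS 5 of the 17 were higher and 6 lower, where 45.6% of all tested genes were called (21.5% higher, 24.1% lower). Osmr, the oncostatin M receptor, was 2.83-fold higher (adjusted p = 4.83e-09 by edgeR) and its partner Il6st, or gp130, 1.54-fold higher (adjusted p = 9.05e-09). Tlr3, a sensor of double-stranded RNA, was 0.426-fold (adjusted p = 1.31e-07). Osmr was also 1.60-fold higher in L-gel@GSNP than in D-gel@NP (adjusted p = 0.000662 by edgeR). Whether these receptors bear on the chemokine genes was not tested.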
